A study of Mus musculus with 6 samples.

Results

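The genes described here are 56 genes of mitosis and chromosome segregation, chosen as a list of gene symbols from what their products are known to do, and all 56 were among the 23935 gene symbols of the deposited tables. They were read in RNA-seq of bone marrow-derived macrophages (BMDMs), which are macrophages grown from mouse bone marrow cells in M-CSF, a growth factor that keeps macrophage precursors alive and dividing. Cells of every mouse were differentiated for 7 days and then primed for 16 h with LPS, a bacterial cell wall component, at 10 ng/mL together with IFN-γ, a T cell cytokine, at 25 ng/mL. The groups were 3 PKM2FL/FL mice, whose floxed Pkm allele was intact, and 3 PKM2ΔMAC mice, which had that allele plus LysM-Cre, where the Lyz2 promoter drives Cre recombinase in myeloid cells. Both genotypes therefore shared the floxed allele, M-CSF and both priming agents, and no unprimed culture is compared here. The control mice lacked Cre, so deletion within Pkm and the presence of Cre in Lyz2 cannot be told apart. The sources used here give no age for the marrow donors, and they name male donors for BMDM cultures studied by flow cytometry but state no sex for the sequenced ones. Each library came from 1 mouse, and mice are named by genotype and number.

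Mitosis is the phase in which duplicated chromosomes are condensed, attached to a microtubule spindle and pulled into 2 daughter cells. CDK1 bound to cyclin B drives entry, the spindle checkpoint holds the anaphase-promoting complex (APC/C) inactive until every kinetochore is attached, and separase then cuts the cohesin that holds sister chromatids together. Most of these genes are transcribed in G2 and M phase and are repressed in resting cells, and many of their promoters carry CCAAT boxes, which bind NF-Y, and a CHR element close to the start, which is bound by the DREAM and B-MYB-containing complexes. A differentiated macrophage divides little, whereas its precursors in an M-CSF culture divide, so in bulk RNA a larger number of cycling cells and more RNA per cycling cell cannot be told apart.

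Promoter sequences are shown for 5 members with well-known cell cycle promoters, as the 150 bases before the transcription start, 5′ to 3′ on the strand of the gene. They are from RefSeq on GRCm38.p6. Capitals mark CCAAT on either strand (ATTGG is its reverse complement), and TTTGAA or TTCGAA, the letters of a CHR element, on either strand (TTCAAA is the reverse complement of TTTGAA, and TTCGAA reads the same on both strands).
Ccnb2, chr9:70421555-70421704, minus strand: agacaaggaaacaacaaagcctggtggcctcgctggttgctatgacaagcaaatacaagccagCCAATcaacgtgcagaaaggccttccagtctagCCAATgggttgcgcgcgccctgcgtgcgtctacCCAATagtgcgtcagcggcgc
Cdc20, chr4:118437344-118437493, minus strand: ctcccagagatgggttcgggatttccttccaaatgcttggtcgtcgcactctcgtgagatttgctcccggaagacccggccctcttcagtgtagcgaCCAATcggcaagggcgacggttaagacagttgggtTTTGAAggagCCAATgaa
Plk1, chr7:122159285-122159434, plus strand: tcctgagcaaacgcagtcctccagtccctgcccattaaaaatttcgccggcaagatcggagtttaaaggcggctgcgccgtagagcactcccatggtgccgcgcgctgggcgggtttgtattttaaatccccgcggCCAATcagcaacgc
Cdk1, chr10:69352913-69353062, minus strand: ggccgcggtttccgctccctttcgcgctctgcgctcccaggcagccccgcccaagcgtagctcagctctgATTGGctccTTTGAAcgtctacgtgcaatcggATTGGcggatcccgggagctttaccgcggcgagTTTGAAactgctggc
Aurka, chr2:172370571-172370720, minus strand: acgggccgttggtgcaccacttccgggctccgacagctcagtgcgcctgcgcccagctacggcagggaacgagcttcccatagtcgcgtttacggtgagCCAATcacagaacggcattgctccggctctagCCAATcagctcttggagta
Ccnb2 is on chromosome 9, Cdc20 on chromosome 4, Plk1 on chromosome 7, Cdk1 on chromosome 10 and Aurka on chromosome 2. The Ccnb2 sequence held 3 CCAAT boxes, with first bases at -87, -54 and -21 from the start, and its TTTGAA or TTCGAA matches at -167 and 5 lay outside the stretch shown. In Cdc20, CCAAT at -53 and -8 stood on either side of TTTGAA at -18. The Cdk1 sequence held TTTGAA at -71 and -15, and CCAAT, read on the opposite strand, at -80 and -48. Plk1 held 1 CCAAT at -14, and Aurka held CCAAT at -51 and -19, and their TTTGAA or TTCGAA matches at 31 and 33 were after the start.

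A promoter window of 250 bases before to 50 bases after the start was found for 46 of the 56 members. CCAAT was in the window of 33 of the 46, or 71.7%, against 41.1% of the 27025 genes with such a window and 42.6% of those tested here. TTTGAA or TTCGAA was in 34 of the 46 windows, or 73.9%, against 21.7% of all genes and 16.9% of tested genes. From 50 bases before to 50 bases after the start the share was 67.4% of members and 6.12% of all genes. Both motifs together were in 63.0% of the members' windows and in 8.61% of all windows. The share with TTTGAA or TTCGAA was 60.0% among 60 other mitosis genes, 28.6% among 28 DNA replication genes and 15.0% among 20 genes of the APC/C core and the cohesin core. Neither motif was found in the windows of Birc5, Mad2l1, Melk, Mybl2, Ncaph, Nuf2, Nusap1 and Pttg1. Aurkb, Ccna2, Cdc25c, Dlgap5, Foxm1, Incenp, Kif20a, Smc4, Spc24 and Tpx2 are not among the 46. These matches describe letters in a window and are not measurements of binding.

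**Figure D1:**
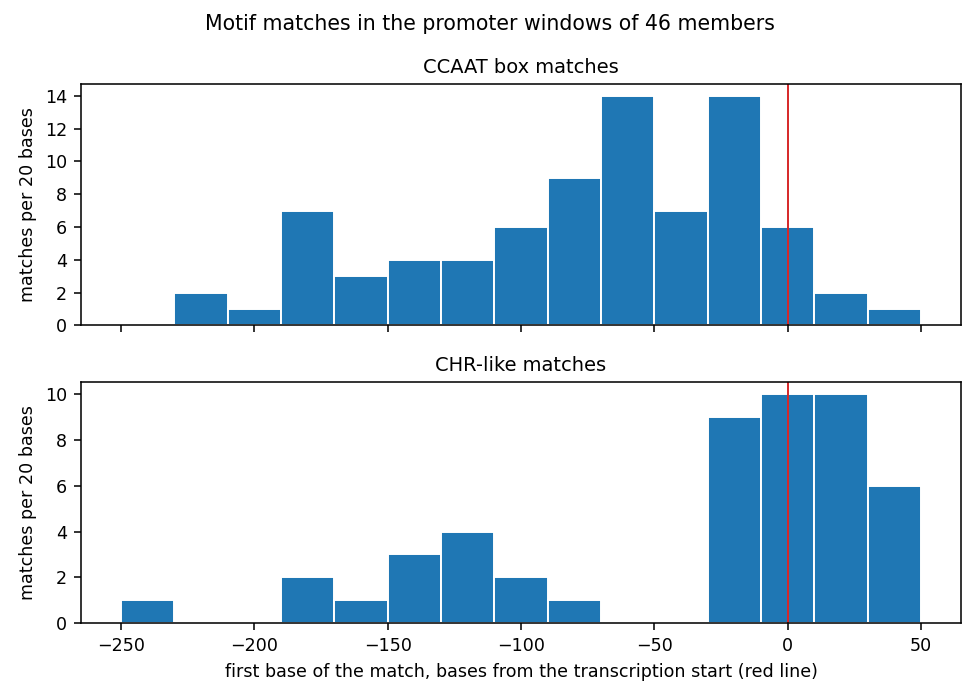
Number of motif matches per 20 bases (vertical axis) against the distance of the first base of the match from the transcription start (horizontal axis, bases) in the promoter windows of 46 members. The upper panel counts CCAAT and the lower panel TTTGAA or TTCGAA, which fell from 50 bases before to 50 bases after the start in 67.4% of the members.

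The libraries held between 49957449 and 54524651 counts, and the 56 members had between 79 and 13552 counts per library. CPM values, which are counts relative to the library total scaled by TMM factors, are used for a gene across libraries, and the deposited TPM values, which are per transcript length, are used between genes. PKM2ΔMAC mouse 2 stood apart from the other libraries. Its counts differed from those of mice 1 and 3 of its genotype by a chi-square statistic, divided by its degrees of freedom, of 43.1 and 53.8, against 10.1 between mice 1 and 3 and between 7.55 and 13.7 within the PKM2FL/FL group. The row of Pkm, in which isoforms are not separated, was at 1715, 1698 and 1706 CPM in the PKM2FL/FL libraries and at 987, 1212 and 1005 CPM in the PKM2ΔMAC libraries, highest in mouse 2 of the latter (log2 fold change -0.68, SE 0.077, edgeR adjusted p = 0.00913). Lyz2, the locus that holds Cre, had a log2 fold change of -9.29. Csf1r, the M-CSF receptor that defines macrophages, was at 3160, 3435 and 3258 CPM in the controls and 3097, 3755 and 2925 CPM in the PKM2ΔMAC mice, and the macrophage marker Cd68 was at 993, 890 and 933 CPM and 972, 716 and 991 CPM. PKM2ΔMAC mouse 2 was thus the highest library for Csf1r and the lowest for Cd68. Itgam, which encodes the integrin CD11b, was at 196.6, 192.8 and 197.6 CPM in the controls and 253.4, 271.5 and 266.3 CPM in the PKM2ΔMAC mice, and was called higher (log2 fold change 0.43, SE 0.040, edgeR adjusted p = 0.00272). Adgre1, which encodes F4/80, was at 1672, 1726 and 1666 CPM and 1939, 2236 and 1884 CPM, without overlap (log2 fold change 0.26, SE 0.068, edgeR adjusted p = 0.236).

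Of the 56 members, 55 had a higher fitted level in PKM2ΔMAC BMDMs and 1, Pttg1, had a lower one, while 49.9% of the 16516 genes tested had a higher level. The median log2 fold change of the members was 0.49, with a range from -0.27 for Pttg1 to 0.74 for Cdc25c, against a median of -0.00021 over all genes tested. No member was called at a Benjamini-Hochberg adjusted p under 0.05 by edgeR's quasi-likelihood test (0 of 56, smallest adjusted p = 0.296 for Hmmr), where 0.412% of all genes were called. At an unadjusted edgeR p under 0.05, 23 members were higher and 1 was lower, against 5.24% of all genes higher and 4.6% lower. That count of 23 was 28 without PKM2ΔMAC mouse 2, 35 without mouse 1 and 39 without mouse 3 of that genotype, and 6, 11 and 12 without PKM2FL/FL mice 1, 2 and 3, while between 3.58% and 6.69% of all genes were higher in these fits. DESeq2 called 7 members, namely Birc5, Cenpf, Espl1, Hmmr, Kif11, Mki67 and Nusap1, all of them higher, with 1.83% of all genes called, and had 44 members higher at an unadjusted p under 0.05, against 5.14% of all genes. limma-trend on log2(TPM + 1) called 0 members, with 0.281% of all genes called, and had 26 members higher at an unadjusted p under 0.05, against 11.6% of all genes, whose median log2 fold change was 0.063 on that scale. The members were tested one by one over the whole table and vary together, so the counts over members are a description and not a test of the list.

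In 36 members all 3 PKM2ΔMAC libraries were above all 3 PKM2FL/FL libraries, and in Pttg1 all were below, against 8.92% and 8.32% of all genes. Such a separation has an exact two-sided permutation p of 0.10, the smallest that 3 against 3 libraries allow. The size of the difference was set mainly by PKM2ΔMAC mouse 2, whose library was the highest of the 6 for 55 members, against 24.9% of all genes. Its level was over 1.5 times the PKM2FL/FL mean in 51 members, against 7.88% of all genes, and the ratio ran from 0.867 for Pttg1 to 2.38 for Kif23 with a median of 1.89. Over the 56 members, the log2 ratio to the mean control level had a median of 0.21, 0.92 and 0.18 in PKM2ΔMAC mice 1, 2 and 3, and -0.069, 0.0064 and 0.054 in the PKM2FL/FL mice. PKM2ΔMAC mouse 1 was above every PKM2FL/FL library in 45 members, mouse 2 in 55 and mouse 3 in 38, against 28.5%, 33.7% and 29.6% of all genes. The 3 PKM2FL/FL libraries lay close together, and in 0 members did the highest of them exceed the lowest by more than 1.5-fold.

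**Figure D2:**
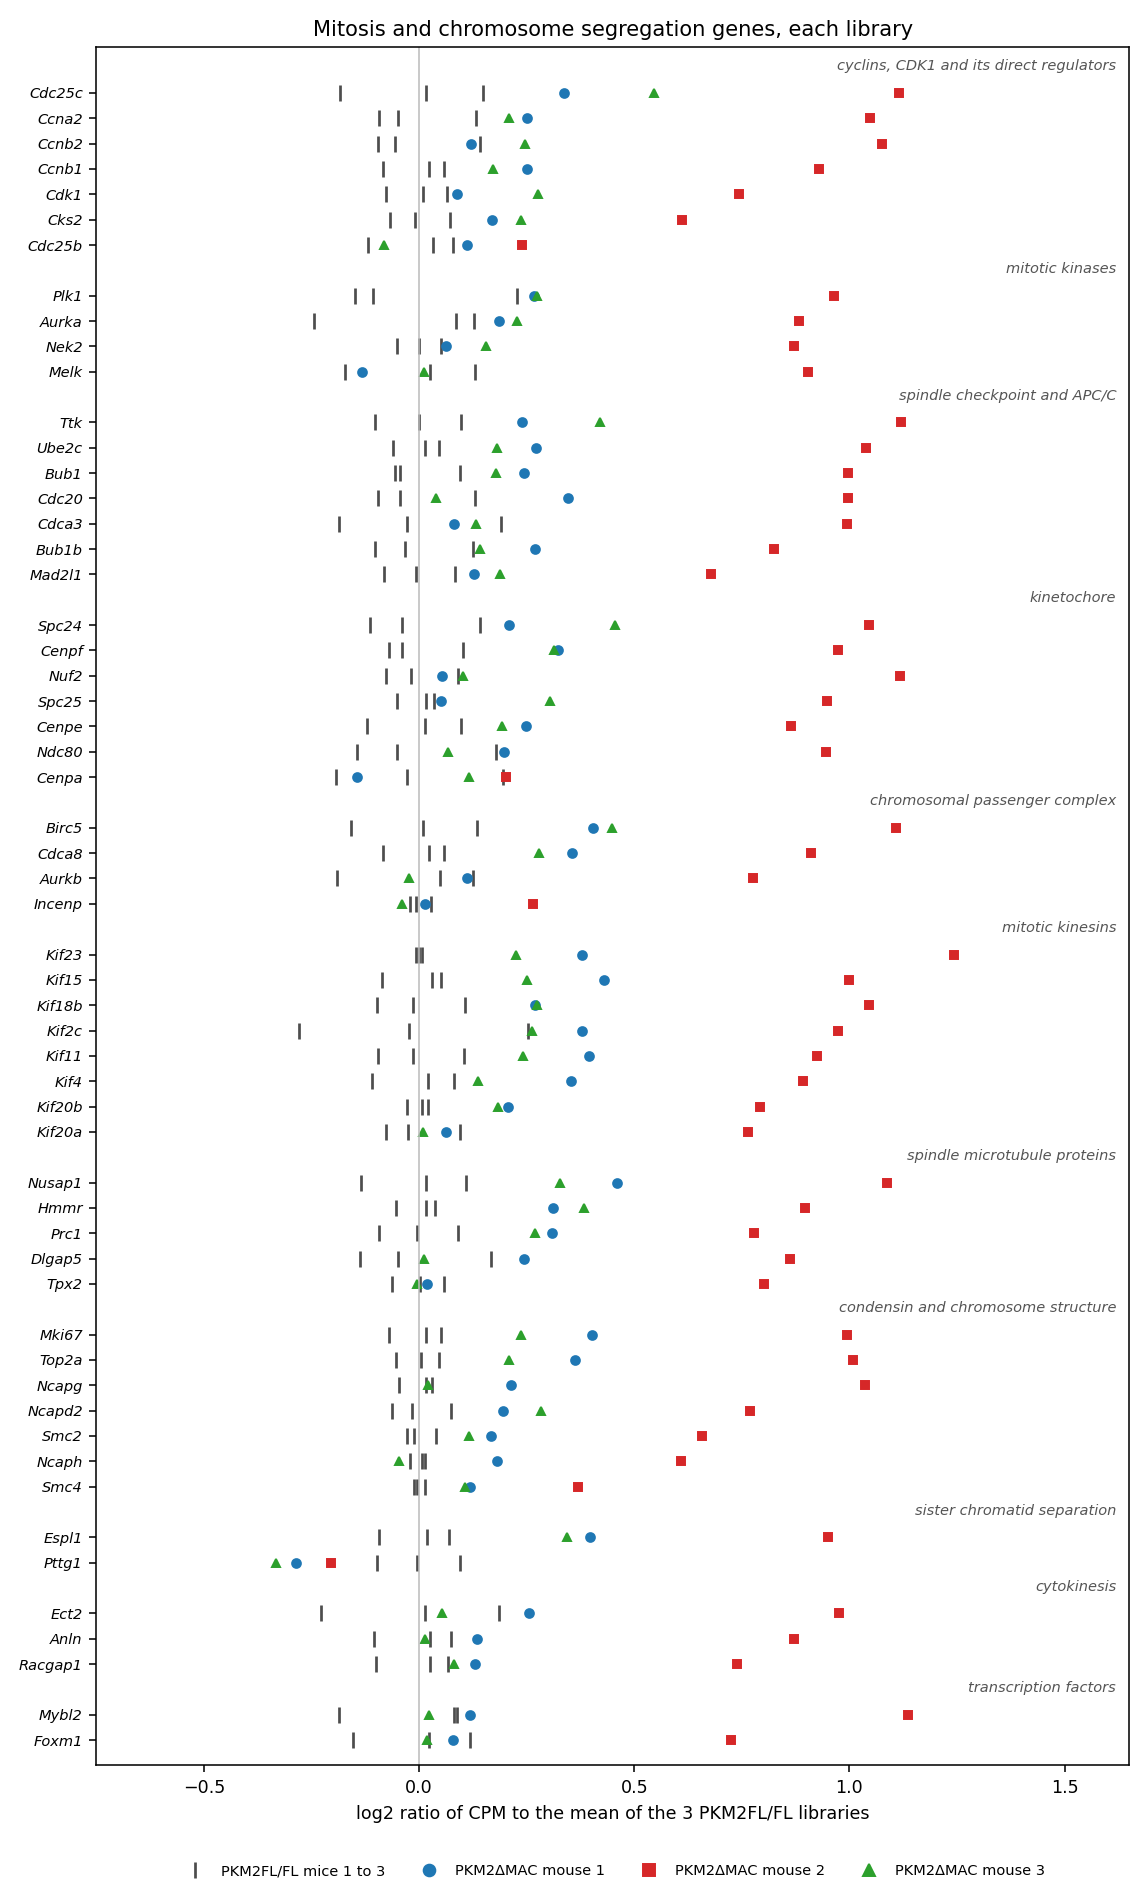
Log2 ratio of CPM to the mean of the 3 PKM2FL/FL libraries (horizontal axis) for each of the 56 members, grouped by role; black ticks are PKM2FL/FL mice 1 to 3, blue circles, red squares and green triangles are PKM2ΔMAC mice 1, 2 and 3. The red square is the rightmost point in 55 rows, and Pttg1 is the row in which all PKM2ΔMAC points lie left of the ticks.

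Without PKM2ΔMAC mouse 2, the difference was smaller and kept its sign in most members. The fit of the other 5 libraries gave a higher level for 52 of the 56 members, against 50.1% of the genes then tested, with a median log2 fold change of 0.21 in place of 0.49. An unadjusted p under 0.05 was reached in the higher direction by 28 members, against 6.69% of all genes. The members below 0 were Pttg1, Melk, Cenpa and Incenp. The same fit called 2 members, with 1.77% of all genes called, namely Mki67 (log2 fold change 0.32, edgeR adjusted p = 0.0154) and Top2a (0.29, adjusted p = 0.0177). Their standard errors were 0.054 and 0.052 in that fit, against 0.21 and 0.23 with all 6 libraries. The library left out was the highest for 55 members, so its removal lowers the spread within its genotype. Calls and p-values from fits without it are therefore given as a description and cannot be read like those of all 6 libraries.

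**Figure D3:**
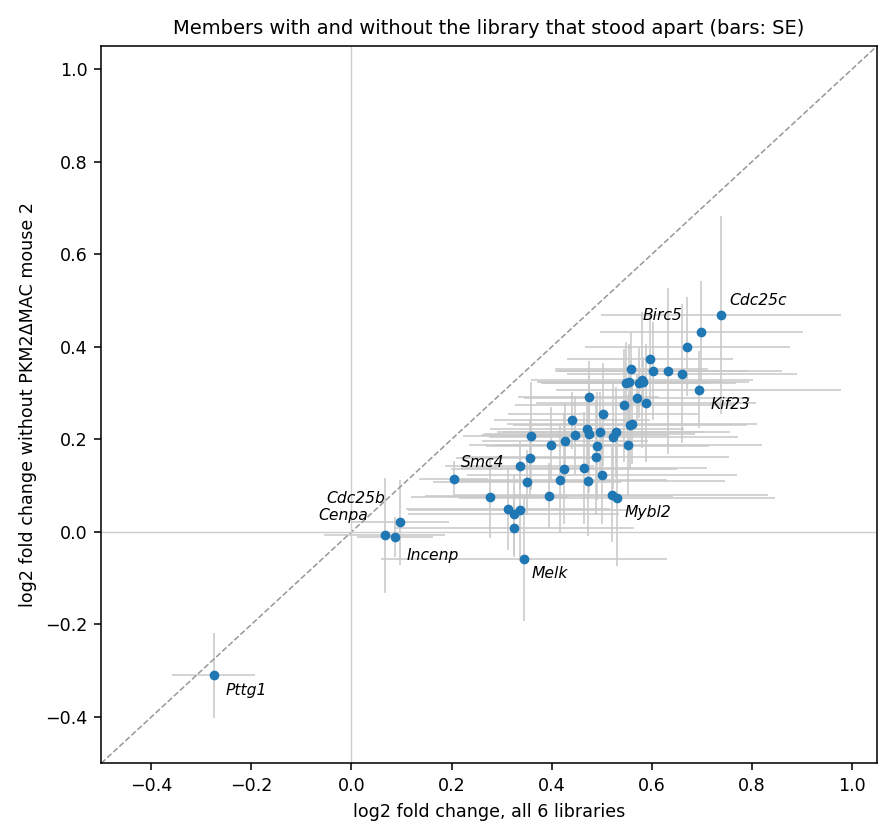
Log2 fold change of each of the 56 members (PKM2ΔMAC against PKM2FL/FL) without PKM2ΔMAC mouse 2 (vertical axis) against the value from all 6 libraries (horizontal axis), with standard errors as bars and equality as the dashed line. All points lie below the dashed line, 52 of them above 0 on the vertical axis, and the medians are 0.21 and 0.49.

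Per transcript length, the members were expressed at a mean of 1.67 TPM (Cdc25c) to 60.3 TPM (Incenp), with a median of 11.6 TPM. The mean was under 10 TPM in 23 members and at least 20 TPM in 11. After Incenp the highest were Mki67 at 55.7 TPM, Smc4 at 52.1 TPM, Top2a at 39.6 TPM and Cks2 at 37.5 TPM. Summed over the 56 members, the level was 679, 728 and 732 TPM in PKM2FL/FL mice 1 to 3, and 840, 1336 and 808 TPM in PKM2ΔMAC mice 1 to 3. This sum was between 0.0679% and 0.134% of all TPM, the highest share being that of PKM2ΔMAC mouse 2. In CPM, the scale used here across libraries, the members summed to 982, 1030 and 1060 in the controls. The CPM sums were 1192, 1800 and 1140 in PKM2ΔMAC mice 1 to 3.

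Among the 7 cyclins, CDK1 and its direct regulators, which drive entry into mitosis, 7 had a higher fitted level in PKM2ΔMAC BMDMs (median log2 fold change 0.50), against 49.9% of all genes. Of them, 3 were higher at an unadjusted edgeR p under 0.05, against 5.24% of all genes. Cdk1, the kinase at the centre of mitotic entry, was at 17.1, 18.8 and 18.1 CPM in PKM2FL/FL mice 1 to 3 and at 19.1, 30.2 and 21.8 CPM in PKM2ΔMAC mice 1 to 3. The groups did not overlap, though mouse 1 was just above the highest control (log2 fold change 0.40, SE 0.17, edgeR adjusted p = 0.503). Ccnb1, which encodes its partner cyclin B1 and lies at chr13:100778650-100786570, was at 11.7, 12.6 and 12.9 CPM in the controls and at 14.8, 23.7 and 14.0 CPM in the PKM2ΔMAC libraries, again without overlap (log2 fold change 0.50, SE 0.21, edgeR adjusted p = 0.508). Cks2, a small protein that binds CDK1 and helps it recognise substrates, was the highest of the group per length, and its CPM was 6.26, 6.62 and 6.00 in the controls and 7.09, 9.67 and 7.43 in the PKM2ΔMAC mice (log2 fold change 0.36, SE 0.14, edgeR adjusted p = 0.438). Cdc25c, a phosphatase that removes inhibitory phosphates from CDK1, had the largest fitted difference and the lowest level of all members. It was at 1.48, 1.71 and 1.89 CPM in the controls and 2.17, 3.79 and 2.52 CPM in the PKM2ΔMAC libraries, from 79 to 208 counts (log2 fold change 0.74, SE 0.24, edgeR adjusted p = 0.362). Cdc25b, a related phosphatase, had a log2 fold change of 0.10 and overlapping groups, and Ccnb2 and Ccna2, cyclins B2 and A2, had log2 fold changes of 0.55 and 0.56. Pseudogenes of both B-type cyclins, Ccnb1-ps and Ccnb2-ps, have rows of their own, the first below the count filter and the second at a mean of 1.21 CPM in the controls, so the counts of Ccnb1 and Ccnb2 are uncertain to that extent.

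The 4 mitotic kinases, which act on centrosomes, the spindle and chromosome arms, had a median log2 fold change of 0.45. Plk1, polo-like kinase 1, was the highest of them per length and was at 8.93, 11.3 and 8.68 CPM in the controls and 11.6, 18.9 and 11.7 CPM in the PKM2ΔMAC mice. Mice 1 and 3 of the latter were only slightly above the highest control, mouse 2 of PKM2FL/FL (log2 fold change 0.55, SE 0.22, edgeR adjusted p = 0.491). Aurka, which encodes the Aurora A kinase of spindle poles, and Nek2, a kinase of centrosome separation, had log2 fold changes of 0.48 and 0.42, with no overlap. Melk had a log2 fold change of 0.34 with overlapping groups, and one of -0.058 without PKM2ΔMAC mouse 2.

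The 7 genes grouped under the spindle checkpoint and the APC/C had a median log2 fold change of 0.52, all 7 being higher, against 49.9% of all genes. Cdc20, the activator of the APC/C that the checkpoint holds back, was at 11.1, 10.7 and 12.6 CPM in the controls and 14.6, 23.0 and 11.8 CPM in the PKM2ΔMAC mice, where mouse 3 fell within the control range (log2 fold change 0.52, SE 0.25, edgeR adjusted p = 0.562). Ttk, the kinase MPS1 that starts the checkpoint signal, was at 3.76, 3.50 and 4.04 CPM and 4.47, 8.30 and 5.08 CPM without overlap (log2 fold change 0.66, SE 0.23, edgeR adjusted p = 0.408). Bub1, Bub1b and Mad2l1, which carry the signal, had log2 fold changes between 0.36 and 0.53, and their groups did not overlap. Ube2c, which encodes the ubiquitin-conjugating enzyme of the APC/C, had a log2 fold change of 0.56. That of Cdca3, grouped here although its product is a part of neither the checkpoint nor the APC/C, was 0.47 with overlap.

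Of the 7 kinetochore genes, whose products link centromeres to microtubules, 7 were higher (median log2 fold change 0.49), against 49.9% of all genes. In 4 of them all PKM2ΔMAC libraries were above all controls, against 8.92% of all genes. Spc24, a subunit of the NDC80 complex that grips microtubules, was at 2.98, 2.62 and 2.48 CPM in the controls and 3.13, 5.66 and 3.73 CPM in the PKM2ΔMAC mice (log2 fold change 0.63, SE 0.23, edgeR adjusted p = 0.412). The log2 fold changes of its other subunits, Ndc80, Nuf2 and Spc25, were 0.46, 0.52 and 0.49. Cenpe and Cenpf, which encode large kinetochore proteins of the outer layer, had log2 fold changes of 0.47 and 0.57. Cenpa, the histone H3 variant that marks centromeres, stood apart from these, at 18.7, 21.0 and 24.6 CPM in the controls and 19.4, 24.7 and 23.2 CPM in the PKM2ΔMAC mice. Its groups overlapped, and its fitted difference was within its error (log2 fold change 0.07, SE 0.12, edgeR adjusted p = 0.909). The log2 fold change was -0.0074 without PKM2ΔMAC mouse 2 and -0.023 without PKM2FL/FL mouse 1.

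The chromosomal passenger complex corrects faulty attachments and moves from centromeres to the midzone, and the log2 fold changes of its 4 subunits ran from 0.09 to 0.70. Birc5, which encodes survivin and lies at chr11:117849251-117855743, was at 7.77, 8.74 and 9.55 CPM in the controls and 11.5, 18.8 and 11.9 CPM in the PKM2ΔMAC mice, with a clear gap between the groups (log2 fold change 0.70, SE 0.20, edgeR adjusted p = 0.341). Cdca8, which encodes borealin, had a log2 fold change of 0.55, also without overlap. Aurkb, the kinase of the complex, was at 10.1, 12.0 and 12.6 CPM and 12.5, 19.9 and 11.4 CPM, and only mouse 2 of PKM2ΔMAC was above the control range (log2 fold change 0.34, SE 0.22, edgeR adjusted p = 0.693). Incenp, the scaffold of the complex and the member with the highest mean TPM, was at 71.7, 70.0 and 69.3 CPM and 71.0, 84.5 and 68.5 CPM, with mouse 1 inside the control range and mouse 3 below it (log2 fold change 0.09, SE 0.076, edgeR adjusted p = 0.778). Its log2 fold change without PKM2ΔMAC mouse 2 was -0.011. The differences between these subunits were not tested.

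The 8 mitotic kinesins, motors that build the spindle and the midzone, had the highest median of the groups, a log2 fold change of 0.57. Of them, 6 were higher at an unadjusted edgeR p under 0.05 and 7 were higher without overlap, against 5.24% and 8.92% of all genes. Kif15, a motor that helps keep the spindle bipolar, was at 8.56, 8.43 and 7.78 CPM in the controls and 11.2, 16.6 and 9.83 CPM in the PKM2ΔMAC mice (log2 fold change 0.60, SE 0.19, edgeR adjusted p = 0.371). Kif20a, the most abundant of them per length and a motor of cytokinesis, was at 12.9, 13.4 and 14.6 CPM and 14.2, 23.2 and 13.7 CPM, and mice 1 and 3 of PKM2ΔMAC fell within the control range (log2 fold change 0.32, SE 0.21, edgeR adjusted p = 0.679). Kif23, a subunit of centralspindlin, had the highest ratio in PKM2ΔMAC mouse 2, at 12.8, 12.9 and 12.9 CPM in the controls and 16.8, 30.6 and 15.1 CPM in the PKM2ΔMAC mice. Kif11, the motor that pushes the spindle poles apart, had a log2 fold change of 0.55, and Kif2c, which takes microtubule ends apart, one of 0.58. Those of Kif4, Kif18b and Kif20b were 0.50, 0.59 and 0.43. Without PKM2ΔMAC mouse 2 the median of the kinesins was 0.29, and the medians of the role groups ran from 0.032 for sister chromatid separation to that value.

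The 5 genes of spindle microtubule proteins had a median log2 fold change of 0.47, all 5 being higher, against 49.9% of all genes. Hmmr, whose product binds spindle microtubules and hyaluronan, had the smallest p of all members and was at 13.2, 12.4 and 13.0 CPM in the controls and 16.0, 24.0 and 16.8 CPM in the PKM2ΔMAC mice. The groups were well apart (log2 fold change 0.56, SE 0.15, edgeR adjusted p = 0.296). Tpx2, which activates Aurora A on the spindle, was at 26.1, 28.4 and 27.3 CPM and 27.6, 47.5 and 27.2 CPM, with mice 1 and 3 of PKM2ΔMAC inside the control range (log2 fold change 0.32, SE 0.24, edgeR adjusted p = 0.741). Nusap1, which bundles spindle microtubules, had a log2 fold change of 0.67, and Prc1, which cross-links those of the midzone, one of 0.47, both without overlap. That of Dlgap5 was 0.42, with PKM2ΔMAC mouse 3 inside the control range.

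The 7 genes of condensin and chromosome structure held the members with the most counts and had a median log2 fold change of 0.44. Mki67, the gene of the proliferation marker Ki-67, which coats mitotic chromosomes, was at 118.0, 125.2 and 128.3 CPM in the controls and 163.7, 246.8 and 146.0 CPM in the PKM2ΔMAC mice. Its mean was 123.9 ± 5.28 CPM (SD, n = 3) and 185.5 ± 53.8 CPM (SD, n = 3), and every PKM2ΔMAC library was above every control (log2 fold change 0.58, SE 0.21, edgeR adjusted p = 0.474). Top2a, topoisomerase IIα, which untangles sister DNA, was at 76.4, 79.5 and 81.8 CPM and 101.8, 159.4 and 91.5 CPM, in the same order of mice (log2 fold change 0.57, SE 0.23, edgeR adjusted p = 0.515). Smc4, an ATPase subunit of condensin, was at 69.6, 69.9 and 70.8 CPM and 76.1, 90.6 and 75.5 CPM, a small difference with the smallest standard error of the members (log2 fold change 0.20, SE 0.070, edgeR adjusted p = 0.394). Smc2, its partner ATPase, had a log2 fold change of 0.34, and those of the condensin I subunits Ncapd2, Ncapg and Ncaph were 0.44, 0.50 and 0.28.

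**Figure D4:**
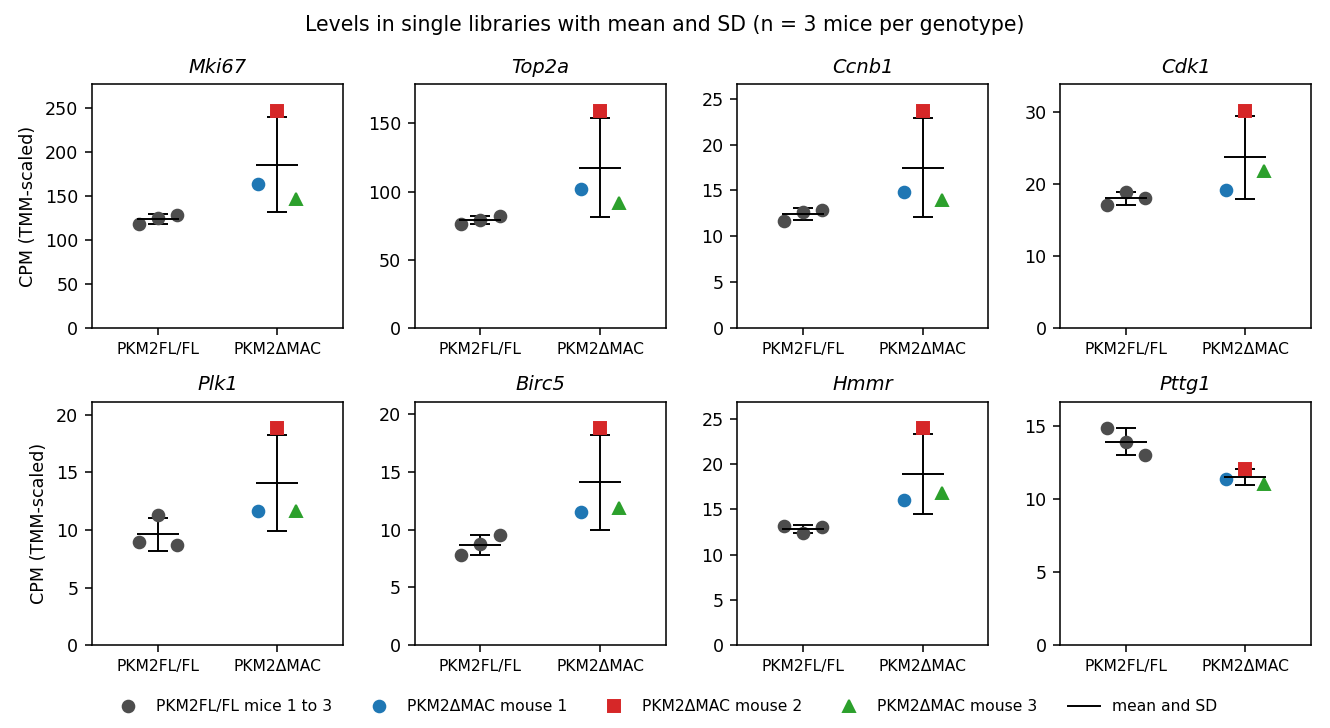
CPM (vertical axis, from 0) of 8 members in single libraries of both genotypes, with horizontal lines for the mean and bars for the SD of 3 mice. PKM2ΔMAC mouse 2 (red square) is the highest point in all panels except Pttg1, where the 3 PKM2ΔMAC mice lie between 11.1 and 12.1 CPM, below the controls.

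The 2 genes of sister chromatid separation lay on opposite sides of 0. Espl1, which encodes separase, the protease that cuts cohesin, was at 10.1, 10.9 and 11.4 CPM in the controls and 14.3, 21.0 and 13.7 CPM in the PKM2ΔMAC mice, without overlap (log2 fold change 0.60, SE 0.17, edgeR adjusted p = 0.303). Pttg1, which encodes securin, the inhibitor and chaperone of separase, lies at chr11:43420250-43426251 and was the only member with a lower level over the 6 libraries. It was at 14.9, 13.9 and 13.0 CPM in the controls and 11.4, 12.1 and 11.1 CPM in the PKM2ΔMAC mice, all of which were below all controls (log2 fold change -0.27, SE 0.083, edgeR adjusted p = 0.332). PKM2ΔMAC mouse 2 was the highest of its genotype for Pttg1 too, at a level below all controls, and the log2 fold change without it was -0.31. The difference between both genes was not tested.

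The 3 genes of cytokinesis, the division of the cell body, had a median log2 fold change of 0.39. Of them, 0 reached an unadjusted edgeR p under 0.05, which 5.24% of all genes reached in the higher direction. Racgap1, a subunit of centralspindlin, was at 22.8, 24.8 and 25.6 CPM in the controls and 26.7, 40.8 and 25.8 CPM in the PKM2ΔMAC mice, where mouse 3 was only just above the highest control (log2 fold change 0.35, SE 0.19, edgeR adjusted p = 0.615). Ect2, the exchange factor that activates RhoA at the division plane, had a log2 fold change of 0.49, and Anln, which encodes the ring protein anillin, one of 0.39, both with overlap. Both genes of transcription factors that activate many of the other members also had overlapping groups. Foxm1 was at 15.7, 19.0 and 17.8 CPM and 18.5, 29.0 and 17.7 CPM (log2 fold change 0.31, SE 0.20, edgeR adjusted p = 0.685). Mybl2, the gene of B-MYB, was at 4.85, 4.83 and 4.00 CPM and 4.96, 10.1 and 4.63 CPM, and carried the largest standard error of the members (log2 fold change 0.53, SE 0.32, edgeR adjusted p = 0.652). In both genes PKM2ΔMAC mouse 2 was above the control range and mouse 3 was inside it. Mouse 1 of PKM2ΔMAC was inside it for Foxm1 and just above it for Mybl2.

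The members varied together over the 6 libraries. The median Pearson r between pairs of members was 0.943, and the median r of a member with the mean profile of all members was 0.973, against -0.0079 for the 13020 other genes with a mean of at least 1 CPM. An r of at least 0.95 was reached by 45 members and by 149 of those other genes. The members with the lowest r were Pttg1 at -0.46, Cenpa at 0.55 and Cdc25b at 0.79. These values describe 6 libraries of which PKM2ΔMAC mouse 2 lay far from the rest, and the members helped to make the profile. The other genes most like the profile were Gpr183 (r = 0.999), Kif22, Phf19, Cip2a, Tnf, Spag5, Macroh2a1, Arhgap11a, Cks1b and Kars (r = 0.992). Kif22 encodes a chromosome-arm kinesin, Spag5 the spindle protein astrin and Cks1b a relative of Cks2. Gpr183, a receptor for oxysterols, was at 20.02, 20.6 and 21.4 CPM in the controls and at 23.5, 35.0 and 23.3 CPM in the PKM2ΔMAC mice. The cytokine gene Tnf was at 10.96, 11.1 and 11.6 CPM and at 12.2, 19.5 and 12.0 CPM, and neither of them was called (edgeR adjusted p = 0.503 and 0.575).

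Other genes of the cell cycle were read from lists of known function. Of 72 tested genes of a list of other mitosis genes, 69 were higher and 3 lower, with a median log2 fold change of 0.34, against 49.9% of all genes higher. In this list 24 were higher at an unadjusted edgeR p under 0.05, against 5.24% of all genes. By edgeR, DESeq2 and limma-trend, 0, 4 and 0 were called, against 0.412%, 1.83% and 0.281% of all genes. Cit, the citron kinase of the midbody, was at 7.70, 7.52 and 8.94 CPM in the controls and 11.5, 16.6 and 11.6 CPM in the PKM2ΔMAC mice (log2 fold change 0.71, SE 0.16, edgeR adjusted p = 0.174). Pkmyt1, a kinase that inhibits CDK1, was at 6.44, 6.31 and 6.16 CPM and 8.84, 8.85 and 7.72 CPM, and here PKM2ΔMAC mouse 2 was level with mouse 1 (log2 fold change 0.43, SE 0.10, edgeR adjusted p = 0.203). The 36 DNA replication genes had 34 higher and 2 lower members, with a median log2 fold change of 0.30. Of these, 17 were higher at an unadjusted edgeR p under 0.05, against 5.24% of all genes. By edgeR, DESeq2 and limma-trend, 0, 4 and 0 were called, against the same shares of all genes as above. Without PKM2ΔMAC mouse 2, edgeR called 1 gene of the first list and 2 of the second, against 1.77% of all genes. Lig1, the ligase that joins Okazaki fragments, was at 24.5, 23.3 and 23.5 CPM and 30.9, 37.3 and 29.2 CPM (log2 fold change 0.45, SE 0.090, edgeR adjusted p = 0.117). Cdc6, which loads the MCM helicase, was at 3.93, 4.35 and 3.86 CPM and 5.77, 8.61 and 5.68 CPM (log2 fold change 0.73, SE 0.18, edgeR adjusted p = 0.220).

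The subunits of the APC/C core and of cohesin, many of which are made throughout the cell cycle, were close to 0, with a median log2 fold change of 0.019 over 24 genes. Of these 21 were higher and 3 lower, against 49.9% of all genes higher, and 0 were called by edgeR, DESeq2 or limma-trend. At an unadjusted edgeR p under 0.05, 1 was higher, against 5.24% of all genes. That gene, the cohesin subunit Smc1a, was at 116.2, 120.9 and 117.8 CPM in the controls and 130.9, 123.8 and 129.6 CPM in the PKM2ΔMAC mice. Pds5b, a regulator of cohesin, had a log2 fold change of 0.12 with an edgeR adjusted p of 0.533. The 11 subunits of the DREAM and Myb-MuvB complexes, which repress and activate the members, had a median log2 fold change of 0.081, with 10 higher and 1 lower. Of them, 1 was higher at an unadjusted edgeR p under 0.05, against 5.24% of all genes, and 0 were called by any of these tools. Tfdp1, which encodes the E2F partner DP1, was at 65.0, 67.5 and 62.4 CPM and 66.9, 78.0 and 71.3 CPM, and Rbl1, the gene of the pocket protein p107, had a log2 fold change of 0.16. The median log2 ratio in PKM2ΔMAC mouse 2 was 0.69 for other mitosis genes, 0.51 for DNA replication genes, 0.18 for DREAM and Myb-MuvB subunits and 0.066 for the APC/C and cohesin cores, beside 0.92 for the members. Without that mouse the median log2 fold changes were 0.14, 0.16, 0.049 and 0.013, beside 0.21 for the members, and differences between the lists were not tested.

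**Figure D5:**
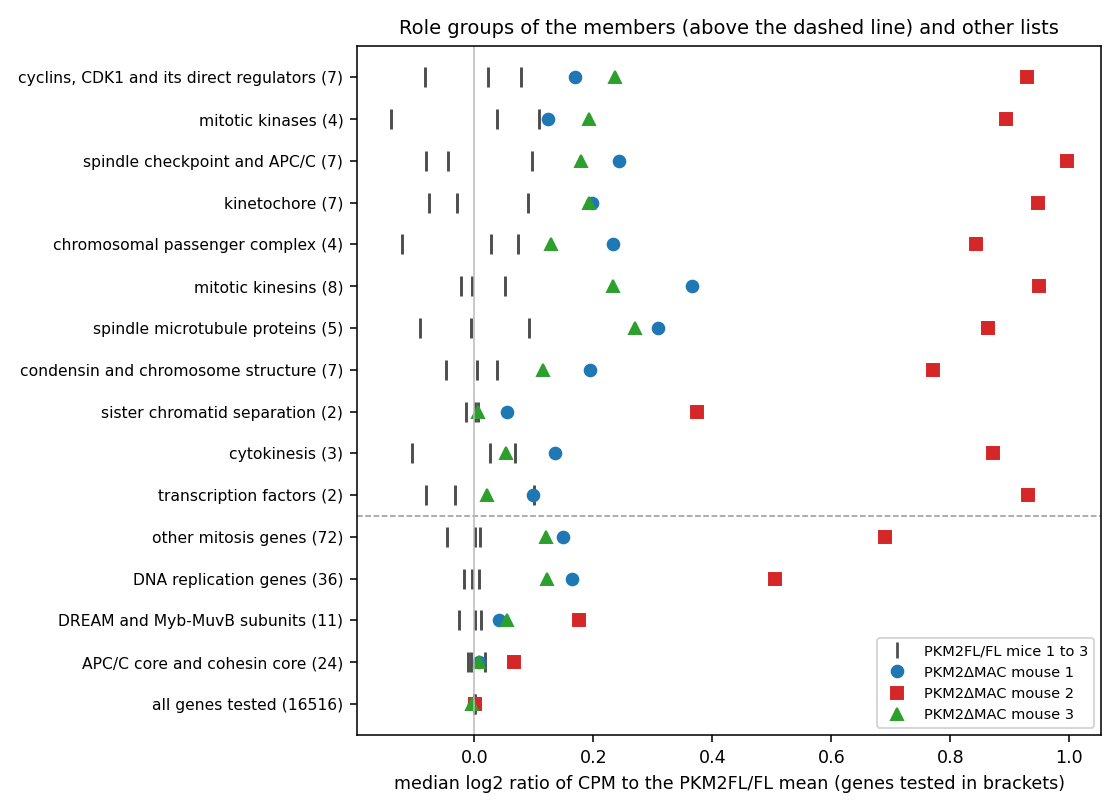
Median log2 ratio of CPM to the PKM2FL/FL mean (horizontal axis) in each library, for the 11 role groups of the members, 4 other lists and all genes tested, with the number of genes in brackets; black ticks are PKM2FL/FL mice 1 to 3 and coloured symbols PKM2ΔMAC mice 1 to 3. PKM2ΔMAC mouse 2 lies at 0.37 or more in every role group and near 0 for all genes, and the APC/C and cohesin cores lie close to 0 in all mice.

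Markers of other cells that a bone marrow culture can hold were read in the same libraries. All 12 markers of neutrophils and their precursors were higher in PKM2ΔMAC BMDMs, against 49.9% of all genes, with a median log2 fold change of 1.60. At an unadjusted edgeR p under 0.05, 7 were higher, against 5.24% of all genes. By edgeR, DESeq2 and limma-trend, 0, 6 and 0 were called, against 0.412%, 1.83% and 0.281% of all genes. The summed level of these 12 markers was between 25.3 and 62.7 CPM in the controls. It was 154.9, 108.3 and 212.5 CPM in PKM2ΔMAC mice 1, 2 and 3. Stem and progenitor markers were higher in 6 of 7 genes, 1 of them at an unadjusted edgeR p under 0.05 (5.24% of all genes). None was called by edgeR, DESeq2 or limma-trend. Their median log2 fold change was 0.24, and 0.48 without PKM2ΔMAC mouse 2. They summed to between 58.4 and 62.7 CPM in the controls and 69.4, 64.9 and 75.7 CPM in PKM2ΔMAC mice 1 to 3. Stromal markers such as the collagen gene Col1a1 were higher in 5 of 6 genes and summed to between 5062 and 5644 CPM in the controls and 6377, 5065 and 6362 CPM in the PKM2ΔMAC mice. Of the stromal markers 2 were higher at an unadjusted edgeR p under 0.05, against 5.24% of all genes. Calls were 0 by edgeR, 1 (Pdgfrb) by DESeq2 and 0 by limma-trend, against the shares of all genes given above. Without PKM2ΔMAC mouse 2, edgeR called 2 stromal markers, against 1.77% of all genes, and had 4 higher at an unadjusted p under 0.05, against 6.69%. B lineage markers, of which 4 of 7 in the table passed the filter, were higher in 4 and summed to between 39.4 and 50.1 CPM and between 42.3 and 55.3 CPM, nearly all of it Ebf1. Erythroid markers, with 4 of 8 passing the filter, were higher in 4 and summed to between 4.53 and 4.87 CPM and between 5.84 and 6.59 CPM. In each of the B lineage and erythroid lists 1 gene was higher at an unadjusted edgeR p under 0.05 and 0 were called by edgeR, DESeq2 or limma-trend. Macrophage identity genes were higher in 4 of 9. With all 6 libraries Itgam was called by edgeR, DESeq2 and limma-trend, and Adgre1 by DESeq2 alone. Without PKM2ΔMAC mouse 2, edgeR called 2 of the 9, against 1.77% of all genes. The 9 genes summed to 7490, 7745 and 7501 CPM in the controls and 7716, 8441 and 7488 CPM in the PKM2ΔMAC mice. Dendritic markers were higher in 2 of 6, megakaryocyte and platelet markers in 1 of 4, mast cell and basophil markers in 1 of 2 and T and NK markers in 1 of 1 that passed the filter. The other mast cell and basophil marker, Cpa3, was lower at an unadjusted p under 0.05 and in all PKM2ΔMAC libraries, from a mean of 0.712 CPM in the controls (log2 fold change -1.45, edgeR adjusted p = 0.233). In these last 4 lists the summed levels of the genotypes overlapped, and megakaryocyte and platelet markers summed to 46.8 CPM in PKM2ΔMAC mouse 2 against 74.7 to 109.2 CPM elsewhere. The part of other cell types in the level of the mitosis genes was not tested.

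The 56 members lie on 17 chromosomes of GRCm38 (positions from GENCODE M21), and 6 of them are on chromosome 9, which also holds Pkm at chr9:59656368-59679375. The nearest is Kif23 at chr9:61915905-61946774, 2.24 Mb from Pkm, and the next is Ccnb2 at chr9:70407692-70421547, 10.7 Mb away. Both genotypes carry the floxed allele, so DNA linked to it would be shared by the groups. LysM-Cre, carried by the PKM2ΔMAC mice alone, lies in Lyz2 at chr10:117277331-117282321, and Cdk1 is 47.9 Mb from Lyz2. DNA linked to either locus was not examined. Exons of 16 members overlap those of another gene, for example Cdc20 with Elovl1, Kif20a with Cdc23, Ccna2 with Exosc9 and Nusap1 with Oip5, all on the opposite strand. Whether reads were counted by strand is not given in the sources used here, so reads of such pairs could not be told apart where strand was not used.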

How the data were processed

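RNA of LPS/IFN-γ-primed BMDMs from 3 PKM2FL/FL and 3 PKM2ΔMAC mice was sequenced by the authors from total RNA, each mouse giving 1 library. They are used here as deposited: raw read counts for 23935 gene symbols, and TPM values, deposited for the same symbols. The submitters' processing notes name FastQC 0.12.1, Trim Galore 0.6.10, HISAT2 2.2.1, SAMtools 1.19.2, Subread 2.0.6 and the build mm10. The gene annotation and the use of strand in counting are not given in the sources used here. Columns were matched to mice by the genotype and number they carry, and 0 columns were left over.

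Counts were tested with edgeR 4.0.16 (R 4.3.3) by the quasi-likelihood test with robust estimation, genotype as the only term and TMM factors, on the 16516 genes kept by filterByExpr, all 56 members included, with Benjamini-Hochberg adjustment over all of them. Log2 ratios and exact two-sided permutation tests used log2(CPM + 0.1). Alternatives were DESeq2 1.42.0, limma 3.58.1 (trend, log2 of the deposited TPM), other scalings and filters, a replicate block, non-robust estimation and each library left out. Calls of DESeq2 and limma-trend in the other lists were counted after the data were seen. The functions were tested on simulated counts. The mice of a genotype are separate animals, so p-values set the difference between genotypes against the spread between mice. In edgeR that spread is estimated with information shared across genes.

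Written out with every library were, in each role group, the member with the highest mean TPM and the one with the smallest p, any member called by edgeR with all 6 libraries (none was) or with a negative log2 fold change, and Ccnb1, Cdk1, Plk1, Aurkb, Top2a, Mki67 and Foxm1. Of the 4 other lists of cell cycle genes, the 2 genes with the smallest p were named (genes of the marker lists were named after their values were seen), and of other genes the 10 with the highest Pearson r with the members' mean profile. Kif23, the member with the highest ratio in PKM2ΔMAC mouse 2, was written out after its values were seen. The members, the roles, the other lists and the tests were chosen with earlier results of these data known.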

Additional observations from a re-analysis of the deposited data

How the results depend on the processing

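The members kept their direction under most alternatives. Of 384 values (the 24 members named by the rule, which leaves out Kif23, and 16 alternatives), 375 kept their sign and their side of the threshold, 6 passed the threshold only under the alternative and 3 changed sign, with adjusted p between 0.0154 and 0.992. The count of genes called, 68, became 302 with DESeq2, 120 with no filter on low counts, 41 and 34 with limma-trend on log2(TPM + 1) and log2(TPM + 0.1) for a mean TPM of at least 1, and 36 with log2(TPM + 1) and no filter. When each library was left out in turn it ran from 22 to 299, the highest without PKM2ΔMAC mouse 2. The number of members called, 0, became 7 with DESeq2 and ran from 0 to 2 when libraries were left out. When libraries were left out, the log2 fold change of Cenpa ran from -0.023 to 0.17, and that of Incenp from -0.011 to 0.14. The causes were not tested. No label ties same-numbered mice of both genotypes, so the numbers were not taken as pairs. Same-numbered mice deviated together with r = 0.080, 0.141 and 0.019, and differently numbered mice with r from -0.124 to 0.067. With a replicate block, 82 genes and 0 members were called. The smallest edgeR adjusted p of a member was then 0.11, for Plk1, with an SE of 0.10 against 0.22 without the block. The members' median log2 fold change was 0.45 with the block. The median ran from 0.21 to 0.63 when libraries were left out. At 3 mice per genotype the precision is set by the spread between mice.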
